A study of Homo sapiens with 16 samples.

Results

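The genes described here are the cadherins, protocadherins and claudins, the adhesion proteins of the cell surface. They were taken as every protein-coding gene of the deposited table whose symbol starts with CDH or CLDN and a digit or with PCDH, which gave 110 of 56969 genes: 23 cadherins, 64 protocadherins and 23 claudins. Of these, 37 had a mean of 10 or more normalized counts over the 16 libraries and were tested (7 cadherins, 17 protocadherins and 13 claudins), and the other 73 were too low to test. The members were chosen by name and not by a measured value, though the rule was set with earlier results of these data known.

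Cadherins are calcium-dependent proteins that join neighbouring cells at adherens junctions, where their tails bind catenins. Protocadherins form the largest branch of the cadherin superfamily. Most of their genes lie in the alpha, beta and gamma clusters, where each first exon has its own promoter and cells choose among them. Claudins are membrane proteins of tight junctions, which in liver seal the bile canaliculus between hepatocytes, and different claudins make the seal tighter or open it to ions.

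HepG2, an established human liver cancer cell line, was transfected with a control siRNA or with HCF-1 siRNA, which targets HCFC1, the gene of a transcriptional cofactor bound to chromatin. Both groups were transfected on plating and again 2 days later, and RNA was collected after 2 further days. Each group held 8 cultures that the labels call biological replicates, sequenced as stranded mRNA libraries. Values are the authors' normalized counts, and recovered totals were 21030830 to 32820459 reads in control libraries and 25098840 to 43186890 in HCF-1 siRNA libraries. HCFC1 itself (ENSG00000172534) ran from 4851 to 6878 normalized counts in controls and from 3112 to 4171 after HCF-1 siRNA, with no overlap, so transcript remained in every HCF-1 siRNA library. Among liver cell markers 7 of 8 tested rose (6 with edgeR), against 18.2% of all genes tested called higher and 18.3% lower. Their summed level ran from 722942 to 788642 normalized counts in controls and from 861100 to 1029270 after HCF-1 siRNA. Blood cell markers summed to 28050.8 to 32743.6 in controls and 28978.9 to 35233.8 after HCF-1 siRNA, mostly from LYZ, with 2 of 7 at 0 in all libraries; of 4 tested, LAPTM5 fell (-0.32). Endothelial markers summed to 413.7 to 555.4 and 286.6 to 441.9, with KDR and TEK at 0, and of 4 tested, which include the members CDH5 and CLDN5, ESAM fell (-0.89). Mesenchymal markers summed to 5281 to 6642 and 4056 to 5307, with THY1 at 0, and of 4 tested TAGLN (-0.83) and COL1A1 (-0.56) fell, as log2 fold changes. Another mesenchymal marker, not called by limma, was higher at an unadjusted limma p under 0.05, and DESeq2 called 1 higher. The median log2 fold change was 0.18 over the 4 tested endothelial markers and -0.26 over the 4 tested mesenchymal markers. Whether other cell types or cell state had a part in the results below was not tested, and in bulk RNA fewer cells of a type and less RNA per cell cannot be told apart.

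After HCF-1 siRNA, 14 of the 37 tested members fell and 3 rose. The decreases lay in all 3 families: the claudins CLDN6, CLDN9, CLDN3, CLDN19 and CLDN4, the cadherins CDH24, CDH15 and CDH1, and the protocadherins PCDHGB2, PCDHGB1, PCDHB13, PCDHB16, PCDHGB4 and PCDHB2. The increases were CDH4, CLDN14 and CLDN15. A call was a Benjamini-Hochberg adjusted p under 0.05 from limma over all 16081 genes tested, on log2(normalized count + 1), a scale that understates the change of low genes. By that rule 36.6% of all genes tested were called, 18.2% higher and 18.3% lower, while 45.9% of the members were called.

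The median log2 fold change of HCF-1 siRNA over control was -0.25 over the 37 members and 0.01 over all genes tested. By family it was -0.10 over the cadherins, with 1 higher and 3 lower, -0.35 over the protocadherins, with 0 higher and 6 lower, and -0.07 over the claudins, with 2 higher and 5 lower. For the protocadherins the count of higher genes was also 0 at an unadjusted limma p under 0.05, with edgeR and with DESeq2. At that unadjusted p 3649 of all 16081 genes tested were higher and 3659 lower. Negative fold changes were found in 14 of 17 protocadherins, 5 of 7 cadherins and 7 of 13 claudins, whether or not the gene was called. Of all 16081 genes tested, 7913 had a negative fold change, and the claudins were near that share. The 2 groups of libraries did not overlap for 9 members, against a background of 9.82% of genes tested. Calls were more frequent among well-expressed genes in general: 42.6% of all genes with a mean of 100 or more were called, and 21.4% of those between 10 and 100. Members with a mean of 100 or more were called in 12 of 17 cases (11 lower and 1 higher), and those between 10 and 100 in 5 of 20.

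**Figure D1:**
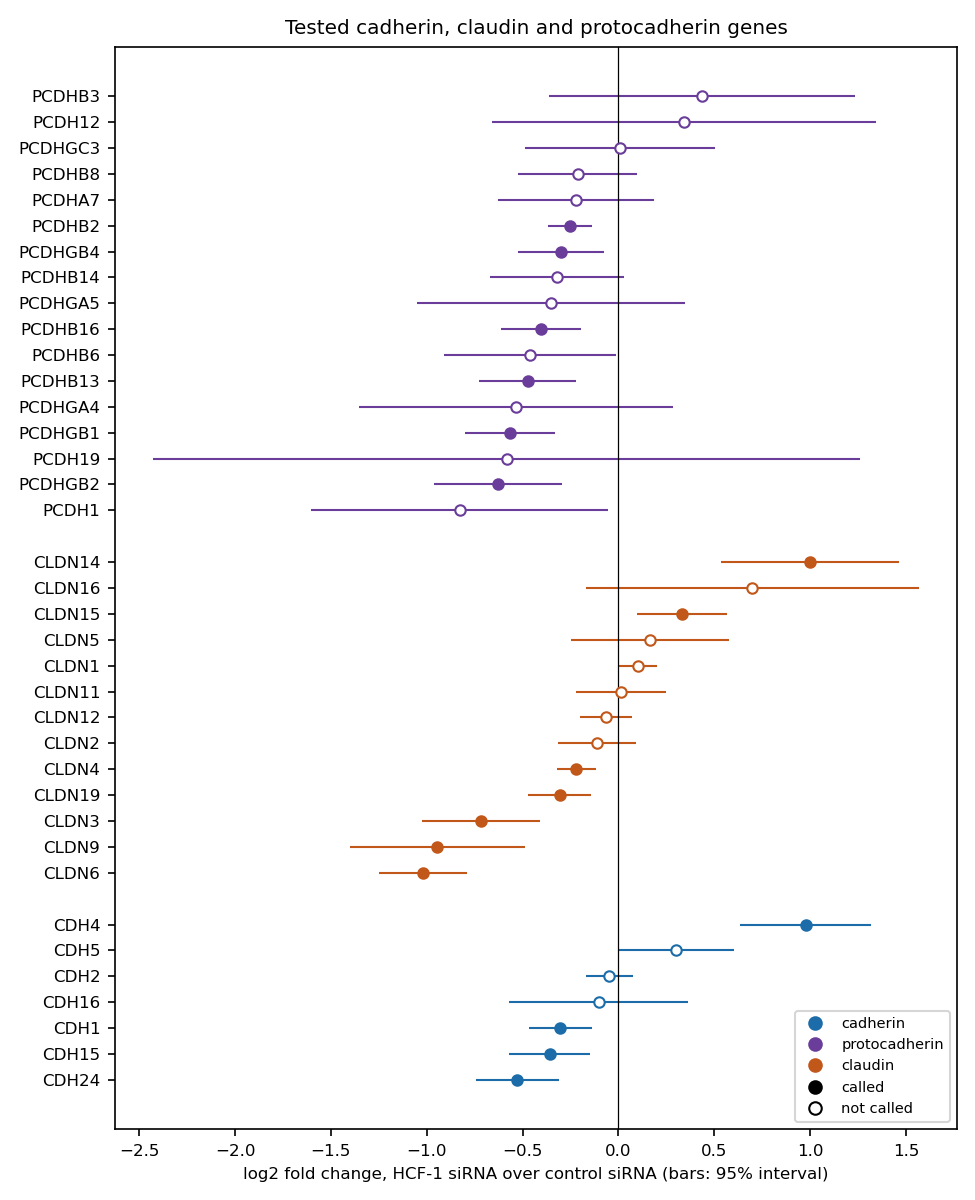
Log2 fold change (HCF-1 siRNA over control siRNA, 8 libraries each) of the 37 tested members by family, with 95% confidence intervals from limma. Filled points are called genes and open points are not; CLDN6 and CLDN9 lie near -1, CDH4 and CLDN14 near 1, and the called protocadherins lie between -0.63 and -0.25.

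The most abundant members per kilobase of exon were CLDN1 and CDH2. In control libraries CLDN1, a claudin of hepatocyte tight junctions, had 1132 normalized counts per kilobase (985 to 1232). CDH2, N-cadherin, had 857 (723 to 945), and the 2 ranges did not overlap. CLDN4 with 462 (432 to 493) and CLDN6 with 451 (404 to 515) came next and overlapped each other. CDH1, E-cadherin, was at 141, below CLDN12 at 157 and above PCDHB2, the highest protocadherin, at 126. CDH4 at 2.43 and PCDH12 at 1.57 were near the bottom of the tested members. Exon lengths were taken from GENCODE 29 by Ensembl identifier, which held 36 of the 37 tested members, all but PCDHB16.

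**Figure D2:**
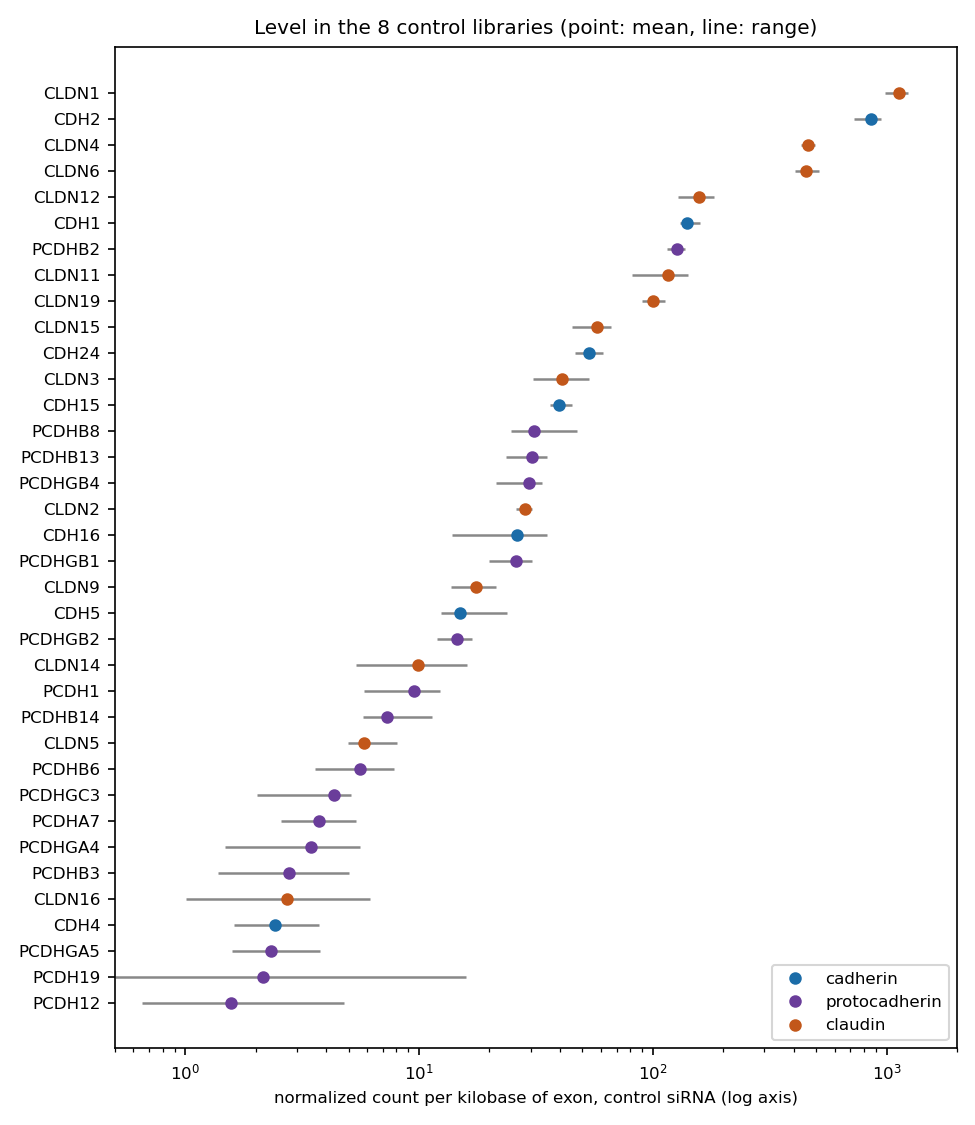
Control siRNA level of the tested members in normalized counts per kilobase of exon on a log axis, points for the mean and lines for the lowest and highest of 8 libraries, coloured by family; the line of PCDH19 reaches 0 and leaves the axis. CLDN1 and CDH2 stand at the top at 1132 and 857, and most protocadherins lie below 31.

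Claudin 6, a claudin of embryonic epithelia that is also made by some tumours, had the largest decrease of the 37 members. CLDN6 (ENSG00000184697) ran from 702.1 to 895.3 normalized counts in the control libraries (median 764.9) and from 246.5 to 462.9 after HCF-1 siRNA (median 405.2). Each HCF-1 siRNA library lay below each control library by a wide gap. The mean went from 783.7 ± 78.4 to 391.1 ± 70.4 (SD, n = 8 each), a log2 fold change of -1.02 ± 0.11 (SE, 95% interval -1.25 to -0.79, limma adjusted p = 1.98e-06). CLDN9, a claudin of the inner ear, lies next to CLDN6 in RefSeq's order (assembly GRCh38.p14) and fell too, from a lower level (17.5 normalized counts per kilobase of exon in controls, against 451 for CLDN6). CLDN9 (ENSG00000213937) ran from 28.07 to 43.93 in controls (median 36.52) and from 8.229 to 27.3 after HCF-1 siRNA (median 20.33), from 12 to 43 recovered reads a library. Its groups did not overlap either, though the gap was narrow. The log2 fold change of CLDN9 was -0.94 ± 0.22 (limma adjusted p = 0.00252). Of the genes on the far side of CLDN6, TNFRSF12A did not pass (0.13 ± 0.16, limma adjusted p = 0.557) and HCFC1R1, named for a protein that binds HCF-1, fell from 444.9 to 359 normalized counts (-0.31 ± 0.07, limma adjusted p = 0.00334). CLDN6 shares 2.3% of its exons with TNFRSF12A on the opposite strand. Of all 50-base windows, matched on either strand, 8% of those of CLDN6 also occur in another gene, AL353807.1 most often. The same holds for 1.2% of those of CLDN9, in CLDN6 most often.

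CLDN3 and CLDN4, receptors for a clostridial toxin and common claudins of epithelia, are the other adjacent pair among the called members. CLDN4 (ENSG00000189143) ran from 2029 to 2317 normalized counts in controls (median 2167) and from 1592 to 1999 after HCF-1 siRNA (median 1887). The lowest control stood above the highest HCF-1 siRNA library, but the step was small. Its mean went from 2171 ± 109.9 to 1868 ± 136.6 (SD, n = 8 each), or 86% of control (log2 fold change -0.22 ± 0.05, limma adjusted p = 0.00217). CLDN3 (ENSG00000165215) ran from 39.18 to 67.64 in controls (median 51.58) and from 21.92 to 39.04 after HCF-1 siRNA (median 32.85), at 25 to 63 recovered reads. The groups touched without overlapping. CLDN3 fell to 60.2% of control (-0.72 ± 0.15, limma adjusted p = 0.000962), and ABHD11, a hydrolase gene on its other side, fell from 230.2 to 144.8 normalized counts (-0.70 ± 0.14, limma adjusted p = 0.000924).

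The promoters of 3 of these claudins are shown because CLDN3 and CLDN4 are neighbours that differ in level and in the size of their decrease, and CLDN6 fell most. Each is RefSeq's window (GRCh38.p14) of 250 bases before to 50 after the annotated start, 5′ to 3′ on the gene's strand, with the E-box CAGGTG in capitals, the sequence that Snail and ZEB repressors bind. CLDN6 is at chr16:3018134-3018433 (minus strand), CLDN3 at chr7:73770221-73770520 (minus strand) and CLDN4 at chr7:73830746-73831045 (plus strand).
CLDN6: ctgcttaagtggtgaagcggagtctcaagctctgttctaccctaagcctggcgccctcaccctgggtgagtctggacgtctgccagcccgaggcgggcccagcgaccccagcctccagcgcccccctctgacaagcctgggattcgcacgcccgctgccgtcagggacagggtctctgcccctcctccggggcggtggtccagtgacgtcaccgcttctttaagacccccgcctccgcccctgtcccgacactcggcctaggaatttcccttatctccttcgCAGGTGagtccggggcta
CLDN3: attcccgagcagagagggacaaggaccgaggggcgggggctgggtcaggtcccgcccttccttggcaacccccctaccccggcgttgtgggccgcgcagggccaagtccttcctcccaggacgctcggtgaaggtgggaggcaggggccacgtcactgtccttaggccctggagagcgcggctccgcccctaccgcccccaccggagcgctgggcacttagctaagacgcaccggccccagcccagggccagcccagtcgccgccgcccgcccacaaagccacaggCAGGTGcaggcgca
CLDN4: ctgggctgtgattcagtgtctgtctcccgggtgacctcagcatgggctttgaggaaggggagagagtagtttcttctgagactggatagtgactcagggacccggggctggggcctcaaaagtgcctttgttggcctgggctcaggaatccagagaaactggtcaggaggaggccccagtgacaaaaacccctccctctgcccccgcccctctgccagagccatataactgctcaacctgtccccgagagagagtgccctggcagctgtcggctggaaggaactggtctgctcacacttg
The E-box lies 32 bases after the start in CLDN6 and 36 bases after it in CLDN3, and the window of CLDN4 does not hold these letters on either strand. Of 35116 RefSeq promoters of this length 20.6% hold CAGGTG, as do 6 of the 28 tested members with a promoter in the table (CDH4, CLDN3, CLDN6, CLDN14, CLDN16 and PCDH1). Those 6 include genes that rose and genes that fell. CDH1, CDH15, CDH24, CLDN9 and CLDN19, which also fell, have no promoter in the table, so whether they hold CAGGTG was not examined. The CLDN6 window also holds the cyclic AMP response element TGACGTCA, found in 1.85% of all promoters and in no other tested member with a promoter in the table. Guanine and cytosine make up 66% of the CLDN6 window, 72% of the CLDN3 window and 59% of the CLDN4 window, against a median of 58.7% over all promoters. A match of letters is a description and does not show that a factor binds.

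CLDN19, a claudin of kidney and retina, was the other claudin that fell. CLDN19 (ENSG00000164007) ran from 322.9 to 407.7 normalized counts in controls (median 362) and from 245.5 to 351.1 after HCF-1 siRNA (median 283.5), with overlap. The decrease was to 81.2% of control (-0.31 ± 0.08, limma adjusted p = 0.00546).

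CLDN14 and CLDN15 rose. CLDN14, a claudin that tightens the barrier to cations and is mutated in an inherited deafness, rose from a low level. CLDN14 (ENSG00000159261) ran from 15.28 to 45.54 normalized counts in controls (median 28.29) and from 43.46 to 66.2 after HCF-1 siRNA (median 54.93), at 15 to 87 recovered reads. The groups overlapped only in that 1 control passed the lowest HCF-1 siRNA library. The log2 fold change was 1.00 ± 0.22 (limma adjusted p = 0.00181), and 4.6% of its exons overlap an opposite-strand gene. CLDN15, which forms sodium channels in gut epithelium, ran from 130.1 to 191.7 in controls (median 167.8) and from 154.3 to 250.2 after HCF-1 siRNA (median 210.9). CLDN15 (ENSG00000106404) overlapped between the groups and reached 127% of control (0.33 ± 0.11, limma adjusted p = 0.0266). Its call was lost in 6 of 26 alternative settings, among them the omission of replicate 4 of the controls and of replicates 4, 6 and 7 of HCF-1 siRNA. Over the alternatives, which include edgeR and DESeq2 beside limma, its adjusted p ran from 0.00756 to 0.0654.

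The remaining tested claudins did not pass. CLDN1, the most abundant of the family, ran from 3610 to 4513 normalized counts in controls (median 4185) and from 3999 to 4896 after HCF-1 siRNA (median 4451), with a log2 fold change of 0.10 ± 0.05 (95% interval 0.00 to 0.20, limma adjusted p = 0.101). Without HCF-1 siRNA replicate 3 CLDN1 passed (0.12, limma adjusted p = 0.0426). CLDN12, which forms calcium-permeable pores, had -0.07 ± 0.06 (limma adjusted p = 0.451). CLDN11, a claudin of myelin and testis, had 0.01 ± 0.11 (95% interval -0.22 to 0.25, limma adjusted p = 0.935). CLDN2, a cation pore of leaky epithelia, ran from 88.95 to 103.3 in controls and from 71.65 to 111.9 after HCF-1 siRNA (-0.11 ± 0.10, limma adjusted p = 0.391). CLDN5, the endothelial claudin, and CLDN16, a renal magnesium claudin, were at low levels and had 0.17 ± 0.20 and 0.70 ± 0.41, with limma adjusted p of 0.543 and 0.201.

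**Figure D3:**
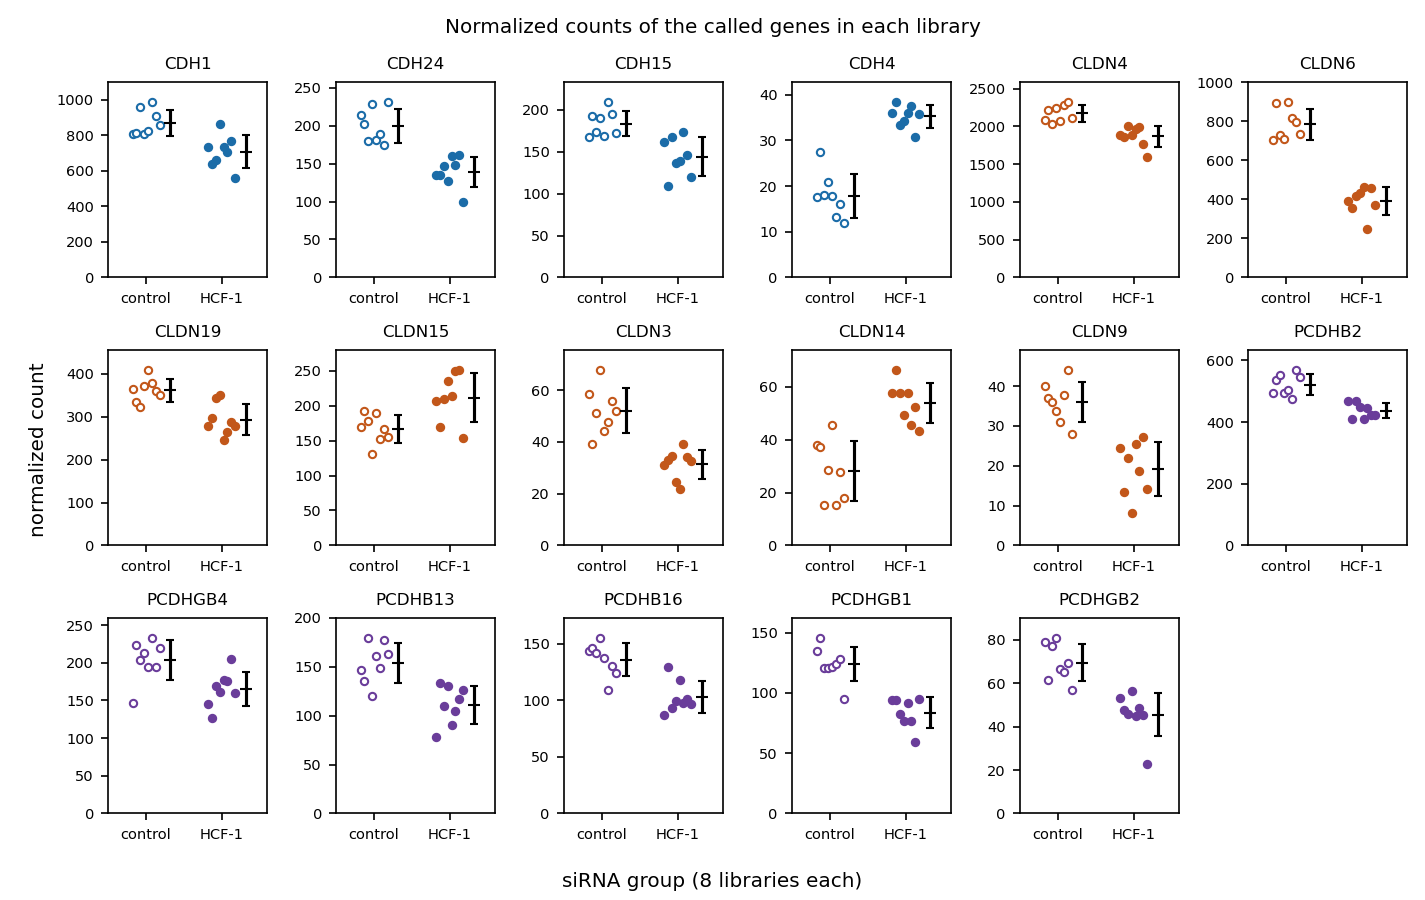
Normalized counts in each of the 16 libraries for the 17 called members, one panel a gene, with points for libraries and bars for the mean and SD of each group, each axis starting at 0. The 2 groups are apart for 9 genes, among them CLDN6, CDH24 and CDH4, and overlap for the other 8.

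Among the cadherins, the type II gene CDH24 and the type I genes CDH15 and CDH1 fell and the type I gene CDH4 rose. CDH24 encodes a cadherin that binds catenins like the classical members. CDH24 (ENSG00000139880) ran from 174.4 to 230.5 normalized counts in controls (median 195.4) and from 99.96 to 161.5 after HCF-1 siRNA (median 140.7). No HCF-1 siRNA library reached the lowest control. Its mean went from 199.9 ± 22.4 to 139.1 ± 19.9 (SD, n = 8 each), 69.6% of control (-0.53 ± 0.10, limma adjusted p = 0.000634). CDH15, M-cadherin of muscle, ran from 167.4 to 208.9 in controls (median 181.8) and from 108.6 to 174.1 after HCF-1 siRNA (median 142.5). CDH15 (ENSG00000129910) overlapped between the groups and fell to 78.5% of control (-0.36 ± 0.10, limma adjusted p = 0.00918).

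CDH4, R-cadherin of retina and brain, was at a low level and rose. CDH4 (ENSG00000179242) ran from 11.91 to 27.53 normalized counts in controls (median 17.72) and from 30.71 to 38.27 after HCF-1 siRNA (median 35.9), from 12 to 50 recovered reads a library. The groups did not overlap, and the HCF-1 siRNA libraries were close to each other. Its mean went from 17.9 ± 4.82 to 35.2 ± 2.41 (SD, n = 8 each), a log2 fold change of 0.98 ± 0.16 (95% interval 0.64 to 1.32, limma adjusted p = 0.000162).

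E-cadherin fell modestly and N-cadherin did not pass. CDH1 (ENSG00000039068) ran from 806.5 to 983.2 normalized counts in controls (median 840.1) and from 556.3 to 864.1 after HCF-1 siRNA (median 720.7). Its groups overlapped, and the mean fell to 81.4% of control (-0.30 ± 0.08, 95% interval -0.47 to -0.14, limma adjusted p = 0.00564). CDH1 shares 5.6% of its exons with an opposite-strand gene. CDH2 (ENSG00000170558) ran from 3579 to 4676 in controls (median 4282) and from 3609 to 4675 after HCF-1 siRNA (median 4156), 2 nearly equal ranges. Its log2 fold change was -0.05 ± 0.06 (95% interval -0.17 to 0.08, limma adjusted p = 0.564). CDH2 made up 70.7% to 75.5% of the summed cadherin counts in controls and 72% to 79.9% after HCF-1 siRNA.

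The log2 ratio of CDH1 to CDH2 within a library was -2.29 ± 0.14 in controls (SD, n = 8, -2.46 to -2.09) and -2.54 ± 0.29 after HCF-1 siRNA (SD, n = 8, -2.94 to -2.06). The difference was -0.26 (two-sided exact permutation test over 12870 splits, p = 0.0427), and the groups overlapped. This p missed 0.05 when any 1 of 8 libraries was left out, namely replicates 1, 3, 6 and 7 of the controls and 2, 3, 5 and 8 of HCF-1 siRNA. Over all 16 omissions the exact p ran from 0.00606 to 0.0847.

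CDH5, VE-cadherin of endothelium, ran from 75.45 to 144.1 normalized counts in controls (median 83.23) and from 77.49 to 140.3 after HCF-1 siRNA (median 111.4). CDH5 did not pass (0.30 ± 0.14, limma adjusted p = 0.115), but did without control siRNA replicate 1 (0.40, limma adjusted p = 0.0187) or HCF-1 siRNA replicate 4 (0.37, limma adjusted p = 0.0466). Of the other endothelial markers in the table, KDR and TEK were at 0 in all libraries, ESAM fell from 347.1 to 189.8 normalized counts (-0.89 ± 0.13, limma adjusted p = 4.39e-05), and VWF, at 15.1 and 18.7, and CLDN5 did not pass. CDH16, kidney-specific cadherin, was at 50.73 to 129.1 in controls and 43.87 to 132.4 after HCF-1 siRNA and did not pass (-0.10 ± 0.22, limma adjusted p = 0.748).

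The 6 protocadherins that fell all belong to the beta and gamma clusters, which lie side by side on chromosome 5, with 3 from each: PCDHB2, PCDHB13, PCDHB16, PCDHGB1, PCDHGB2 and PCDHGB4. Most of the 17 tested protocadherins lie in these clusters, 7 in beta and 6 in gamma. Clustered protocadherins give single neurons their surface identity through homophilic binding. Each beta gene is a single exon, while each gamma transcript joins its own first exon to constant exons shared by the cluster. Their promoters are shown because the 6 genes fell together and because promoters of these clusters carry a conserved element around the letters CGCT. The windows are RefSeq's (GRCh38.p14), 250 bases before to 50 after the start, 5′ to 3′ on the plus strand of chromosome 5: PCDHB2 at chr5:141094365-141094664, PCDHB13 at chr5:141213669-141213968, PCDHB16 at chr5:141182137-141182436, PCDHGB1 at chr5:141349849-141350148, PCDHGB2 at chr5:141359886-141360185 and PCDHGB4 at chr5:141387448-141387747. PCDHGB1 and PCDHGB4 have 2 starts each in the table and the upstream one is shown. Capitals mark CGCTGNNG on either strand.
PCDHB2: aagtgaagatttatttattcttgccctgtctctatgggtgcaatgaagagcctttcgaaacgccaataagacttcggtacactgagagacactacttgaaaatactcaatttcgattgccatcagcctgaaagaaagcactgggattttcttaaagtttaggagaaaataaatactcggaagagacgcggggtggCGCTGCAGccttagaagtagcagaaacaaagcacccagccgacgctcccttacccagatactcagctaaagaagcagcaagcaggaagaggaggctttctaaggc
PCDHB13: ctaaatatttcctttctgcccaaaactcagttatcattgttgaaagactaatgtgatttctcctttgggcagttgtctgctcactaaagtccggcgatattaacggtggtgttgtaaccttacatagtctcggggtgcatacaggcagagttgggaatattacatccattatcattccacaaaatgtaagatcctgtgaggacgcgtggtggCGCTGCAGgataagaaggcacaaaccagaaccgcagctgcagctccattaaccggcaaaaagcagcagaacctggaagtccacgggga
PCDHB16: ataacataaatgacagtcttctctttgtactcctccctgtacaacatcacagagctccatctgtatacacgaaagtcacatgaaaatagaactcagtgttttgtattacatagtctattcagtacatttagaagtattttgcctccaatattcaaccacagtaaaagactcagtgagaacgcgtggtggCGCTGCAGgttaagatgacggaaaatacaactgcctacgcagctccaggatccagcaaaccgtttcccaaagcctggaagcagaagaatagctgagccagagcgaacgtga
PCDHGB1: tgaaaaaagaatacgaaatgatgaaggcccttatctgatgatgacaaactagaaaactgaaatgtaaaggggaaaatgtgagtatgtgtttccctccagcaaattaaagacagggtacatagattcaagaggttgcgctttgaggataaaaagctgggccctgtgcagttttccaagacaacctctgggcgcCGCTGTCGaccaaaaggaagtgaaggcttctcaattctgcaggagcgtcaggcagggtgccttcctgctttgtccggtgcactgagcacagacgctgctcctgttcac
PCDHGB2: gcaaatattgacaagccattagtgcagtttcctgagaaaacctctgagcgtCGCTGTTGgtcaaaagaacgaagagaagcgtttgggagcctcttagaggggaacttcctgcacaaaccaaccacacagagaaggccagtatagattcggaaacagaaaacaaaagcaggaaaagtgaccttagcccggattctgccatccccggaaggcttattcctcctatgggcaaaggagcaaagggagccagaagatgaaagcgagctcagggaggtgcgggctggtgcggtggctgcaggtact
PCDHGB4: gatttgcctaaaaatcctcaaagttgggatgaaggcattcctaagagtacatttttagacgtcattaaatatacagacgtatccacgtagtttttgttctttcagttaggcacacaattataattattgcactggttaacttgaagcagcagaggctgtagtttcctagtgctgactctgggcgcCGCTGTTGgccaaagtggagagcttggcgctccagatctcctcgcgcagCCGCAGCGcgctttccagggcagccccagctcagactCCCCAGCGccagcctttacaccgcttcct
In the 3 beta promoters the capitals read CGCTGCAG and begin 55, 38 and 61 bases before the start of PCDHB2, PCDHB13 and PCDHB16. In the gamma promoters they read CGCTGTCG in PCDHGB1, 58 bases before its start, and CGCTGTTG in PCDHGB2 and PCDHGB4, 199 and 65 bases before theirs. PCDHGB4 holds 2 more matches, on the reverse strand, which begin 16 bases before the start and 21 bases after it. The pattern CGCTGNNG was chosen after these windows had been read, because it is in all 6, so its presence in them is no result. Over all 35116 promoters 23% hold it on either strand, and 25 of 45 clustered protocadherins do. A pattern tried before it, TGNCGCT, is in 10.9% of all promoters and in 30 of 45 clustered protocadherins, and of the 6 genes shown it is missing in PCDHGB2. The tested clustered protocadherins that did not pass include ones with the element, such as PCDHB8 and PCDHGC3. The promoters of the 16 tested protocadherins in the table had a median of 45.8% guanine and cytosine and 9 CpG, against 58.7% and 14 over all promoters.

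PCDHB2, the most abundant protocadherin, fell by a small and even step. PCDHB2 (ENSG00000112852) ran from 474.8 to 567.2 normalized counts in controls (median 520.6) and from 410.7 to 468.9 after HCF-1 siRNA (median 434.6). No library of one group reached the other. Its mean went from 521.4 ± 33.4 to 437.3 ± 23.8 (SD, n = 8 each), 83.9% of control (-0.25 ± 0.06, limma adjusted p = 0.0017). PCDHB13 (ENSG00000187372) ran from 119.7 to 179 in controls (median 154.9) and from 78.39 to 133.4 after HCF-1 siRNA (median 113.4), with overlap. It fell to 72.3% of control (-0.47 ± 0.12, limma adjusted p = 0.00505). PCDHB16 (ENSG00000196963) ran from 109 to 154.8 in controls (median 139.9) and from 87.02 to 129.3 after HCF-1 siRNA (median 98.52), also with overlap. It fell to 75.6% of control (-0.40 ± 0.10, limma adjusted p = 0.00399).

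The gamma genes that fell are all of the B subfamily, and they are the most abundant of the 6 tested gamma genes. PCDHGA4 and PCDHGA5, with means of only 14.8 and 12.2 normalized counts, had log2 fold changes of -0.53 and -0.35 and were not called. A difference between the subfamilies was not tested. PCDHGB2 (ENSG00000253910) ran from 56.99 to 80.65 normalized counts in controls (median 67.94) and from 22.82 to 56.23 after HCF-1 siRNA (median 46.74). The groups came close without overlapping. It fell to 65.5% of control (-0.63 ± 0.16, limma adjusted p = 0.00475). PCDHGB1 (ENSG00000254221) ran from 95.27 to 145.1 in controls (median 122.7) and from 59.14 to 94.53 after HCF-1 siRNA (median 86.83), again without overlap, and fell to 67.6% of control (-0.57 ± 0.11, limma adjusted p = 0.000793). PCDHGB4 (ENSG00000253953) ran from 146.9 to 232.3 in controls (median 208.8) and from 127.2 to 204.7 after HCF-1 siRNA (median 165.4), with wide overlap. It fell to 81.1% of control (-0.30 ± 0.11, limma adjusted p = 0.0331). That call was lost in 8 of 26 alternative settings, namely with low genes kept and with replicates 2, 4, 6 and 8 of the controls or 1, 2 and 8 of HCF-1 siRNA omitted singly. Over all 26 settings, which include edgeR and DESeq2 beside limma, its adjusted p ran from 0.00647 to 0.087. Over the 8 that lost the call, all of them limma fits, it ran from 0.0507 to 0.087.

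Reads of these genes cannot always be assigned to 1 gene. In GENCODE 29 the exons of PCDHGB4 are shared with other gamma genes over 64.4% of their length, and those of PCDHGB1 and PCDHGB2 over 45.7%. Of the 50-base windows of PCDHGB4, 71.1% occur in another gene, PCDHGA8 most often. In the beta cluster, 24.2% of the windows of PCDHB13 and 32.8% of those of PCDHB2 occur in another gene too, PCDHB8 and AC244517.5 most often. Windows were matched on either strand, and AC244517.5 overlaps 15% of the exon length of PCDHB2 on the opposite strand only. The sources used here do not say how reads shared between genes were counted or whether strand was used. The values of single clustered protocadherins are uncertain.

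The other tested protocadherins did not pass, at an adjusted p of 0.0881 or more. PCDH1, a protocadherin of airway epithelium outside the clusters, ran from 34.41 to 72.3 normalized counts in controls and from 9.779 to 70.64 after HCF-1 siRNA. It had the most negative value of the family, -0.83 ± 0.37 (95% interval -1.60 to -0.05, limma adjusted p = 0.0881), and passed without HCF-1 siRNA replicate 1 (adjusted p = 0.0431) or 4 (adjusted p = 0.0385). PCDHB8, PCDHB14 and PCDHB6 in the beta cluster had -0.21, -0.32 and -0.46, and PCDHB3 had 0.44. PCDHGA4, PCDHGA5 and PCDHGC3 in the gamma cluster had -0.53, -0.35 and 0.01, and PCDHA7, the only alpha gene tested, had -0.22. PCDH12, an endothelial protocadherin, had 0.34 (limma adjusted p = 0.608). PCDH19, mutated in an X-linked epilepsy, was at 155.3 normalized counts in control siRNA replicate 1 and at 0 to 4.443 in the other controls, so its place among the tested genes rests on 1 library. Its log2 fold change was -0.58 ± 0.88 (limma adjusted p = 0.637).

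**Figure D4:**
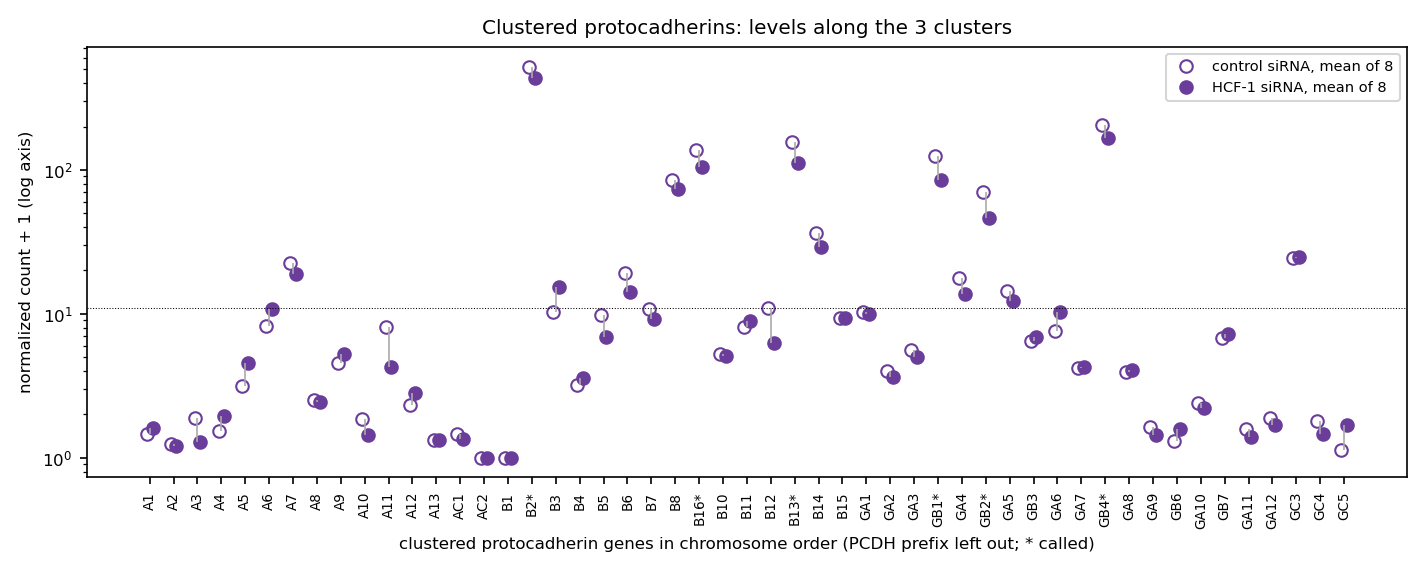
Mean normalized count plus 1 on a log axis of 51 clustered protocadherins in RefSeq's order along chromosome 5, alpha, beta then gamma, for control siRNA and HCF-1 siRNA. PCDHB2 stands highest at 521.4 and 437.3, and most alpha genes lie below the dotted line at a mean of 10.

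Tested genes were unevenly spread over the clusters. Over the 3 clusters 14 genes were tested, 1 of 15 in alpha, 7 of 16 in beta and 6 of 21 in gamma. Alpha genes share exons as gamma genes do, PCDHA7 over 49.5% of its exon length. Whether such sharing lowered the counts of alpha and gamma genes was not tested. PCDHB2 alone made up 28.7% to 33.9% of the summed protocadherin counts in controls and 31% to 34.9% after HCF-1 siRNA. The summed counts of all 64 protocadherins ran from 1569 to 1720 in controls and from 1265 to 1354 after HCF-1 siRNA, with no overlap. Their mean went from 1648 ± 51.3 to 1321 ± 31.6 (SD, n = 8 each), or 80.1% of control. Cadherin sums, dominated by CDH2, overlapped at 5061 to 6263 and 5015 to 6028. Claudin sums overlapped at 9102 to 9736 and 8462 to 9345, with CLDN1 at 39.3% to 48.1% of them in controls and 45.9% to 52.4% after HCF-1 siRNA. The sums add genes of different length and rest on the few most abundant members, and no test was made on them.

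**Figure D5:**
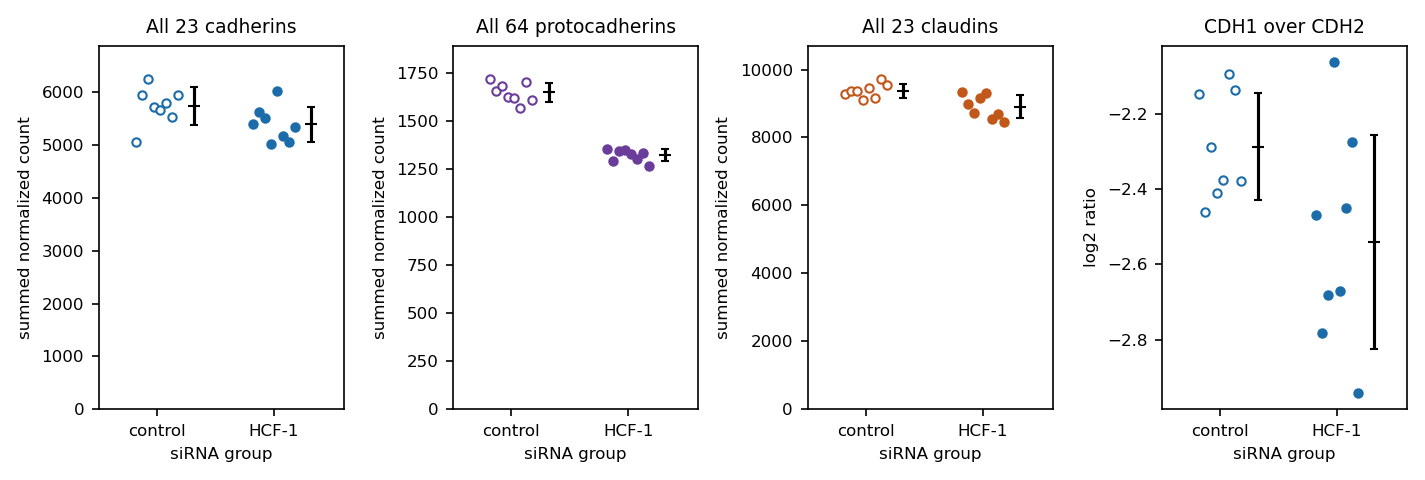
Summed normalized counts of each family in every library, control siRNA and HCF-1 siRNA, on axes from 0, and the log2 ratio of CDH1 to CDH2 on an axis that does not start at 0, with bars for the mean and SD of each group. The protocadherin sums of the groups are apart (1569 to 1720 against 1265 to 1354), and the other sums and the ratio overlap.

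The 73 untested members include 8 listed at 0 in all 16 libraries: CDH20, PCDH8, PCDHB1, PCDHAC2, CLDN8, CLDN17, CLDN22 and CLDN25. The highest mean among the untested was 9.97 for CDH3, P-cadherin, followed by 9.41 for CDH6, 9.13 for PCDHGA1, 8.99 for PCDHB7 and 8.90 for CLDN23. Just above the limit of 10 were PCDH19 with 11.8, PCDHB3 with 11.8, PCDHGA5 with 12.2 and CLDN16 with 13.

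Partner genes of the junctions are given beside the background of 18.2% of all genes tested called higher and 18.3% lower, and nothing is read from counts near those shares. Of 12 tested adherens junction partners 3 rose and 3 fell, with a median log2 fold change of -0.01. The nectin NECTIN4 (PVRL4 in the table) rose by 0.53 ± 0.09, the actin linker AFDN (MLLT4) by 0.45 ± 0.06 and the catenin relative PKP4 by 0.34 ± 0.05, on the log2 scale, with limma adjusted p of 0.000177, 3.73e-05 and 3.55e-05. The 3 that fell were JUP (-0.34 ± 0.04), NECTIN1 (PVRL1, -0.30 ± 0.07) and NECTIN2 (PVRL2, -0.18 ± 0.05). Their limma adjusted p were 1.65e-05, 0.00234 and 0.00799. CTNNB1, beta-catenin, did not pass. Of 18 tight junction partners 4 rose and 2 fell (median 0.08), a share near the background: the scaffold TJP3 rose by 0.47 ± 0.13, the cingulin relative CGNL1 by 0.36 ± 0.05 and SYMPK by 0.32 ± 0.07. The 2 that fell were MARVELD3 (-0.23 ± 0.08, limma adjusted p = 0.0428) and F11R (-0.18 ± 0.03, limma adjusted p = 0.000518). CGNL1 ran from 1303 to 1469 normalized counts in controls and from 1573 to 1959 after HCF-1 siRNA, without overlap. Of 7 desmosome genes 3 rose and 1 fell (median 0.08). The desmosomal cadherins DSC2 and DSC3, neighbours of CDH2 in RefSeq's order, rose by 0.46 ± 0.06 and 0.73 ± 0.23, and PERP fell by 0.19 ± 0.04 on the log2 scale. DSC2 ran from 1508 to 1912 in controls and from 2100 to 2630 after HCF-1 siRNA.

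Of 11 other cadherin superfamily genes 1 rose and 1 fell (median 0.09). CELSR1, a planar polarity gene, rose by 0.38 ± 0.12 (limma adjusted p = 0.0215), and CLSTN3, a calsyntenin, fell by 0.14 ± 0.05 on the log2 scale (limma adjusted p = 0.0353), a call lost in 8 of 26 alternatives, 7 of them the omission of replicate 1, 6, 7 or 8 of the controls or 2, 5 or 8 of HCF-1 siRNA (adjusted p up to 0.08). Of 10 genes for proteases that cut cadherins 5 fell, against 18.3% of all genes called lower, and 0 rose (median -0.20). The count of higher genes was also 0 at an unadjusted limma p under 0.05, with edgeR and with DESeq2. At that unadjusted p 3649 of all 16081 genes tested were higher, and the list is small. ADAM15, a sheddase, fell by 0.57 ± 0.08 and the gamma-secretase subunit PSENEN by 0.50 ± 0.06 on the log2 scale. PSENEN ran from 491.6 to 572.1 normalized counts in controls and from 338.9 to 412.9 after HCF-1 siRNA, without overlap. APH1B, another subunit, fell by 0.81 ± 0.28, a call lost in 7 of 26 alternatives, 5 of them the omission of replicate 2 or 8 of the controls or 1, 2 or 8 of HCF-1 siRNA (adjusted p up to 0.0733).

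Among regulators of the epithelial program, which include the repressors that bind CAGGTG, 2 of 9 tested genes rose, a share near the 18.2% of all genes called higher. None fell, and the count of lower genes was also 0 at an unadjusted limma p under 0.05, with edgeR and with DESeq2. At that unadjusted p 3659 of all 16081 genes tested were lower, and the list is small. The median of 0.12 is the value of TCF4, an imprecise one (0.12 ± 1.26, limma adjusted p = 0.954). ZEB1 ran from 403.6 to 578.2 normalized counts in controls and from 486.4 to 804.1 after HCF-1 siRNA (0.35 ± 0.10, limma adjusted p = 0.0134), with overlap. SNAI1 ran from 158.8 to 196.4 and from 196.7 to 274.3 (0.32 ± 0.08, limma adjusted p = 0.00344), with the groups just apart. Of 11 regulators of the protocadherin clusters 4 rose and 1 fell (median 0.09). SMCHD1, which silences clustered protocadherins, rose by 0.35 ± 0.10, NIPBL, the cohesin loader, rose by 0.33 ± 0.09, and WIZ, a zinc finger partner of CTCF and cohesin, fell by 0.28 ± 0.08 on the log2 scale. CTCF, which binds the cluster promoters, did not pass (0.08). Whether any of these genes had a part in the changes of the cadherins, protocadherins and claudins was not tested.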

How the data were processed

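RNA of 8 control siRNA and 8 HCF-1 siRNA HepG2 cultures was sequenced from stranded mRNA libraries, per the labels' protocols. The authors deposited a table of signal, normalized counts by Ensembl gene. Per the submitters' processing notes, the genome build was hg19, and the tools were DESeq2 1.16.1, featureCounts 1.4.4, STAR 2.4.1d and cutadapt 1.4.2. The sources used here do not give the annotation release, strand setting or filters. Within each library the deposited values were whole multiples of a single step (100% of them, to 0.001 read), which gave back whole reads. No 2 libraries agreed within sampling noise (chi-square per degree of freedom 13.26 or more). The rule for the members and the gene lists were chosen with earlier results of these data known.

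Groups were compared with limma 3.58.1 in R 4.3.3 (lmFit and eBayes, trended and robust) on log2(normalized count + 1). The 16081 genes tested had a mean of at least 10, with Benjamini-Hochberg adjustment over all of them and calls at 0.05. The ratio of CDH1 to CDH2 was tested by exact permutation. Named genes were HCFC1, all tested members, neighbouring genes and up to 3 called genes of largest change per list with a mean of at least 50 in either group. Other list genes in the text, namely CTNNB1, CTCF, JUP, NECTIN1, NECTIN2, F11R, MARVELD3 and the marker genes, and the neighbours of members were chosen after their values were seen. The fit was repeated with other pseudocounts (0.5, 10), other filters (none, a mean of 50), other scalings (total count, upper quartile), array weights and a replicate block, and with each library omitted. Recovered reads were also tested with DESeq2 1.42.0, which called 3160 genes higher and 3098 lower, and with edgeR 4.0.16, which called 2809 higher and 3066 lower. The limma step was tested on simulated data. Promoters are RefSeq's for GRCh38.p14 and exon lengths GENCODE 29's, both of another build than the counts. Coordinates are given only for the promoter windows shown, on GRCh38.p14.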

Additional observations from a re-analysis of the deposited data

Results flagged for a closer look

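In 14 of 114 groups of 8 libraries 1 library stood far from the others. Chance alone marks about 1 in 20 groups of normally distributed values, a rate that need not hold for these unlogged counts. Most are genes at low counts. Among the called members, PCDHGB4 had 146.9 normalized counts in replicate 1 of the controls, where the others had 194.4 to 232.3, and PCDHGB2 at 22.82 in HCF-1 siRNA replicate 8 against 44.71 to 56.23 in the others.

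Control siRNA replicate 1 also stood apart for CDH5 (144.1 against 75.45 to 94.42), PCDHB8 (129.3 against 67.76 to 91.86) and PCDH19 (155.3 against 0 to 4.443). PCDH19 was at 11.51 in HCF-1 siRNA replicate 1, against 0 to 2.63. PCDH12 was at 32.52 in control siRNA replicate 4 (others 4.443 to 10.65) and at 55.31 in HCF-1 siRNA replicate 6 (others 4.315 to 25.94). CLDN16 was at 22.12 in control siRNA replicate 8 (others 3.598 to 12.23), where PCDHGC3 was low at 11.06 (others 20.81 to 27.88). CLDN5 was at 27.51 in control siRNA replicate 6 (others 17.09 to 21.3) and PCDHB14 at 54.87 in control siRNA replicate 3 (others 27.9 to 38.28). In HCF-1 siRNA replicate 4 CLDN12 was at 1097 (others 963.8 to 1018) and SNAI1 at 274.3 (others 196.7 to 226.1). All of these libraries were kept.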

How the results depend on the processing

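Of the 17 called members, 15 stayed called in every one of the 26 alternative settings that tested them; the exceptions were CLDN15 and PCDHGB4. With a filter at a mean of 50, which leaves CDH4, CLDN3, CLDN9 and CLDN14 untested, 0 cadherins were higher, and 1 claudin was higher and 3 lower. With the replicate block 1 claudin was higher, since CLDN15 lost its call, and APH1B lost its call too; the block changed no other call among the members. Same-numbered libraries correlated from -0.13 to 0.138 in their deviations from the group means, so the numbers were not taken as pairs, and only number 8 correlated best with its own number. Leaving out 1 library gave 1 to 2 cadherins higher, 1 to 3 claudins higher, 5 to 7 protocadherins lower and a log2 CDH1 to CDH2 difference of -0.324 to -0.198. Changes of sign were seen only for members near 0 or resting on few libraries. CLDN11 was at -0.014 with total-count scaling, -0.011 with edgeR, -0.001 with DESeq2 and -0.054 to 0.061 with 1 library left out. PCDHGC3 was at -0.02 with total-count scaling and -0.132 to 0.151 with 1 library left out, CDH16 at -0.225 to 0.033, and PCDH19 at 0.707 with DESeq2, -2.907 with edgeR and -0.903 to -0.383 with 1 library left out, where it was still tested; the cause was not tested. Total-count scaling put 43.2% of all called genes higher, against 49.9%. The largest standard errors among the tested members were those of PCDH19 (0.88), PCDH12 (0.48) and CLDN16 (0.41), all at low counts. CDH4 and CLDN9, called at few reads a library, had 0.16 and 0.22.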
